A study of Homo sapiens with 9 samples.

Results

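METTL14-KO and WTAP-KO HEL cells were compared directly with each other for H3K4me3, the histone mark of active promoters, over the peak lists of 2 METTL14-KO and 2 WTAP-KO CUT&RUN libraries. These are 4 of the 9 libraries of the series, which also holds 3 libraries of non-targeting control (NTC) cells and 2 METTL3-KO libraries. The libraries were chosen by their labelled knockout alone. Peaks of the 4 lists that shared at least 1 bp were merged into 6461 regions, where all 9 lists give 30402. The question was where 2 knockouts of the same enzyme complex left the same H3K4me3 peaks and where they left different ones.

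HEL is a human erythroleukemia cell line with erythroid and megakaryocytic features, and each library was made from a bulk culture. The METTL14-KO and WTAP-KO cells carried a lentiviral CRISPR construct against METTL14 or WTAP, and NTC cells carried a non-targeting sgRNA. The study used pools of sgRNAs for several experiments. Which sgRNAs made these libraries is not given in the sources used here, and a pooled knockout population can hold unedited cells. Whether fewer cells carried the mark or each cell carried less of it cannot be told apart. As a check of the labelled cell type, 7 of 8 erythroid marker genes had a promoter peak in all 3 NTC libraries. So did 2 of 7 megakaryocyte, 2 of 7 monocyte and granulocyte and 2 of 4 lymphoid markers, and 8495 of all 20163 protein-coding genes. Of the 8 erythroid markers only TAL1, a hematopoietic transcription factor, had a peak in the 4 knockout libraries. It was listed in both WTAP-KO libraries.

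N6-methyladenosine (m6A) is written on mRNA by a complex in which METTL3 holds the catalytic site and METTL14 supports RNA binding. WTAP joins this pair to further subunits and to nuclear speckles, so that its loss removes an adaptor where loss of METTL14 removes a part of the core. H3K4me3 itself is placed by the SETD1 and KMT2 methyltransferases at nucleosomes beside active transcription start sites. CUT&RUN maps it by antibody-guided cleavage in permeabilised cells, and a fixed amount of spike-in DNA allows libraries to be set on 1 scale. A peak's signal below is in these calibrated units, and it has no zero below the calling threshold.

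The sgRNAs that the study lists against the 2 genes all lie in exons, on hg19. They are shown as the guides listed for the 2 target genes, 5′ to 3′, with the protospacer in lower case and the PAM in capitals. The METTL14 guides are on the plus strand of chr4 at 119606712-119606731, 119615606-119615625, 119609084-119609103 and 119606686-119606705, in this order.
METTL14 guide HGLibA_28958: tccgggagcggcagaagttaCGG
METTL14 guide HGLibB_28918: ttgaagaatatcctaaactgAGG
METTL14 guide HGLibA_28957: gctgaaagtgccgacagcatTGG
METTL14 guide HGLibA_28959: gaacatggatagccgcttgcAGG
The WTAP guides are on chr6 at 160157306-160157325 and 160174516-160174535 on the plus strand and at 160174569-160174588 on the minus strand.
WTAP guide sgWTAP_1: cgaagaacctcttcccaagaAGG
WTAP guide sgWTAP_7: gaagtgtcgaatgcttatccAGG
WTAP guide sgWTAP_10: aagttgtgcaatacgtccctGGG

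Promoter peaks cannot show whether the guides cut, but the target promoters were examined first. The METTL14 promoter had no peak in any of the 4 libraries. At WTAP a peak of 213 was listed in METTL14-KO replicate 1 alone, at chr6:160149226-160149445. METTL3 likewise had a peak in METTL14-KO replicate 1 alone, of 400. NTC libraries had a promoter peak at METTL14 and METTL3 in all 3 replicates and at WTAP in 2 of 3. An unlisted peak is not proof of an unmarked promoter: every deposited list holds only peaks 150 to 2000 bp wide, so a wider peak would be missing.

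The 2 knockouts left peak sets of similar size. METTL14-KO replicates 1 and 2 had 5286 and 3169 peaks, and WTAP-KO replicates 1 and 2 had 3159 and 3673. The METTL14-KO mean was 124% of the WTAP-KO mean, the ranges overlapped, and the two-sided exact permutation p was 0.667. With 2 libraries against 2 there are 6 splits, so that this test cannot go below 0.333. METTL14-KO replicate 1 decided the direction, since without it the METTL14-KO count was 92.8% of the WTAP-KO mean. Median peak width was 345 and 349 bp against 329 and 356 bp, and median signal was 1044 and 922 against 910 and 1091. NTC libraries had 21724 to 21940 peaks and METTL3-KO libraries 9369 and 9205.

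Where the peaks lay differed more than how many there were. In METTL14-KO, 79.3% and 79.4% of peaks were within 1 kb of the start of a protein-coding gene, against 68.9% and 69.1% in WTAP-KO. Peaks within 2 Mb of an assembly gap of at least 1 Mb, mostly the flanks of centromeres and other satellite blocks, made up 6.34% and 5.02% of METTL14-KO peaks and 15.3% and 14.9% of WTAP-KO peaks. These peaks held 23.9% and 19.6% of the summed signal in METTL14-KO and 51.0% and 48.0% in WTAP-KO. Neither share overlapped between the groups (exact permutation p = 0.333 for each, the smallest possible). The distance to a gap was chosen after the data had been seen.

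Both METTL14-KO libraries had more marked genes than either WTAP-KO library. Of 20163 protein-coding genes, 4264 and 2662 had a peak within 1 kb of a start in METTL14-KO and 2298 and 2606 in WTAP-KO. The METTL14-KO mean was 141% of the WTAP-KO mean (exact permutation p = 0.333), although METTL14-KO replicate 2 and WTAP-KO replicate 2 differed by little. A total of 2511 genes were marked in both METTL14-KO libraries, 1948 in both WTAP-KO libraries and 1661 in all 4. Of the genes marked in both METTL14-KO libraries 84.0% had a peak in at least 1 WTAP-KO library, and of those marked in both WTAP-KO libraries 96.7% had one in at least 1 METTL14-KO library. Both METTL14-KO libraries but neither WTAP-KO library marked 402 genes, and the reverse held for 65.

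The regions showed the same overlap with a different residue. All 4 libraries had a peak in 1705 of the 6461 regions, or 26.4%. Of 2696 regions called in both METTL14-KO libraries 81.5% had a WTAP-KO peak, and of 2485 called in both WTAP-KO libraries 84.5% had a METTL14-KO peak. The residue was 498 regions of METTL14-KO alone and 384 regions of WTAP-KO alone. A further 1753 regions were called in METTL14-KO replicate 1 and in no other of the 4 libraries.

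Over all bases, libraries of 1 knockout shared more sequence with each other than with the other knockout, and away from gaps METTL14-KO replicate 2 did not. Bases covered in both libraries were 44.6% of those covered in either for the 2 METTL14-KO libraries and 55.3% for the 2 WTAP-KO libraries, and 33.6% to 42.2% for the 4 pairs of different knockouts. Away from gaps the pairs of 1 knockout shared 45.4% and 54.3% and the mixed pairs 35.5% to 48.1%, and METTL14-KO replicate 2 shared more with WTAP-KO replicates 1 and 2 (46.1% and 48.1%) than with its own partner. Near gaps the pairs of 1 knockout shared 33.5% and 59.9% and the mixed pairs 9.84% to 20.2%. Over 1377 promoter regions called in all 4 libraries and away from gaps, Pearson's r of log2 signal was 0.825 within METTL14-KO, 0.802 within WTAP-KO and 0.649 to 0.695 in mixed pairs. This is a description across regions, which share libraries and are not independent replicates.

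Promoters marked in METTL14-KO alone, promoters marked in WTAP-KO alone and promoters marked in all 4 libraries are shown by the bases upstream of the start. They were chosen by the highest mean signal among regions that lay over a start and had no annotated exon in those bases. Each is 120 bases of hg19 on the strand of the gene, 5′ to 3′, ending at the base before the start. Capitals mark matches on either strand to CCAAT, the GC box GGGGCGGGG, the KLF motif CCNCNCCC or the ETS motif CCGGAAGT, and where matches to 1 motif overlap only the first is in capitals.
PRCC, METTL14-KO alone, chr1:156737207-156737326: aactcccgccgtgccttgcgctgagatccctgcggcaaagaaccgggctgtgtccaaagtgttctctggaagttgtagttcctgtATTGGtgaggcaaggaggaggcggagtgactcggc
LRRC45, METTL14-KO alone, chr17:79981061-79981180: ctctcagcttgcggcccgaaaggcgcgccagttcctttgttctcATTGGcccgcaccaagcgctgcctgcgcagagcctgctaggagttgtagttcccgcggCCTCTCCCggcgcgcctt
PPP2R1B, WTAP-KO alone, chr11:111637114-111637233: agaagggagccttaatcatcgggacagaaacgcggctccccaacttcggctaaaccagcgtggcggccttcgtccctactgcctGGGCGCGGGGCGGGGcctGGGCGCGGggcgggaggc
HMGN4, WTAP-KO alone, chr6:26538474-26538593: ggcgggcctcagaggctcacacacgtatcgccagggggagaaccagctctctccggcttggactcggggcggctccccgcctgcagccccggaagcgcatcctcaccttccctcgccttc
ALG9, all 4 libraries, chr11:111742306-111742425: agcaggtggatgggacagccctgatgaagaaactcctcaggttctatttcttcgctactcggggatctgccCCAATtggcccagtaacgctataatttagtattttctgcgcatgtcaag
HAUS6, all 4 libraries, chr9:19102903-19103022: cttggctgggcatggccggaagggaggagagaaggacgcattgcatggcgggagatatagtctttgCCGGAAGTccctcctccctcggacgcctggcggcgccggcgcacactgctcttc

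Regions of METTL14-KO alone were mostly promoters. At a coding start lay 80.9% of the 498 regions, and 37 were near a gap. Peaks of METTL3-KO replicates 1 and 2 overlapped 93.2% and 90.4% of them, and peaks of the NTC libraries 50.4%, 49.0% and 49.8%. Over all 6461 regions the shares were 81.9% and 85.8% for METTL3-KO and 44.6%, 42.8% and 40.9% for NTC. Of the 498, 392 were at a coding start and away from gaps. Among these 392, 69.1% lay over the start itself and 93.1% had a peak in both METTL3-KO libraries. In the 1377 promoter regions called in all 4 libraries these shares were 71.4% and 86.8%. The median METTL14-KO signal was 794 in the 392 and 2027 in the 1377. Near gaps the order was the reverse, with a median of 6457 in the 37 regions of METTL14-KO alone and 3529 in the 57 of all 4 libraries.

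Regions of WTAP-KO alone were mostly not promoters. At a coding start lay 19.5% of the 384 regions, while 257 were near a gap and 67.7% were intergenic. Of the gap regions 76 were on chrY, 49 on chr10 and 32 on chr4. The 75 regions at a coding start and away from gaps lay over the start in 29.3% of cases, and their median signal in WTAP-KO was 589. For 25.3% of these 75 a METTL14-KO peak was called within 1 kb, and for 18.9% of the 392 promoter regions of METTL14-KO alone a WTAP-KO peak was.

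**Figure D1:**
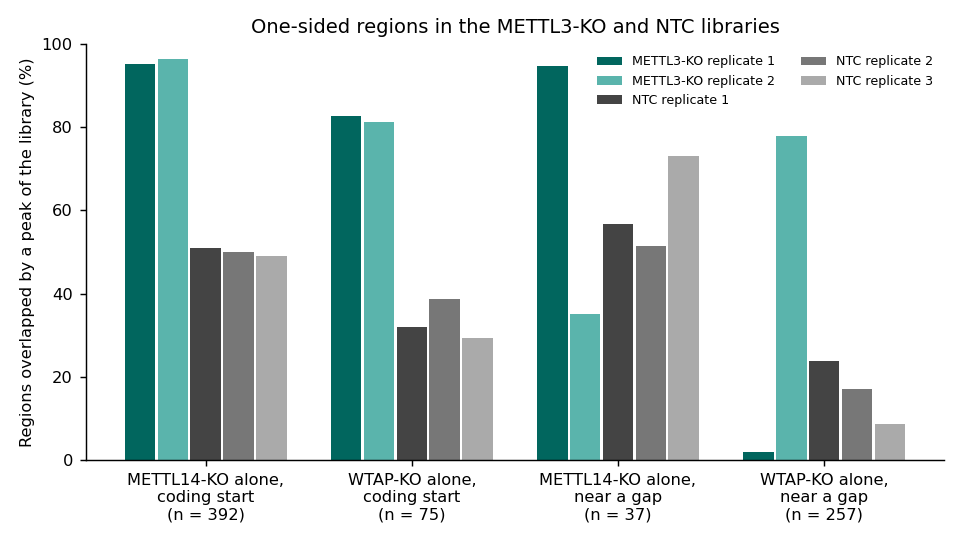
Percent of regions (vertical axis) found in both libraries of one knockout and in none of the other that a peak of each METTL3-KO or NTC library overlaps, for promoter regions away from gaps and for regions near gaps. The METTL3-KO bars are both above 80% in the promoter groups, but near gaps METTL3-KO replicate 1 reaches 94.6% of the METTL14-KO regions and 1.95% of the WTAP-KO regions, and replicate 2 reaches 35.1% and 77.8%.

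Near gaps the METTL3-KO libraries divided along the same line as the knockouts compared here. METTL3-KO replicate 1 had a peak in 94.6% of the 37 gap regions of METTL14-KO alone and in 1.95% of the 257 of WTAP-KO alone. METTL3-KO replicate 2 had a peak in 35.1% and 77.8% of them. The 2 METTL3-KO libraries carry the same label, so the gap signal also varied within a labelled group. No batch is given in the labels, and the part of library preparation in these regions was not tested.

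The gap regions are shown by 120 bases of the plus strand of hg19 at the centre of a region. The first pair was called in METTL14-KO alone and the second in WTAP-KO alone. They were taken in order of mean signal among regions away from coding starts and exons, with some stronger ones passed over. Capitals mark a tandem pair of ATTCC, the unit of a human satellite repeat, or the core of the CENP-B box, the motif of a centromere protein, on either strand, with only the first of overlapping matches in capitals.
chr1:121484685-121484804: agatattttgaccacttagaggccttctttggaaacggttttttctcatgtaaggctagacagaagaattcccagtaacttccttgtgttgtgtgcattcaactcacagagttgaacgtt
chr10:42599713-42599832: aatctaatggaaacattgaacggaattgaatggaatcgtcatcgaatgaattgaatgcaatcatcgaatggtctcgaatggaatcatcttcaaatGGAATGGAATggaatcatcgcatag
chr2:89853269-89853388: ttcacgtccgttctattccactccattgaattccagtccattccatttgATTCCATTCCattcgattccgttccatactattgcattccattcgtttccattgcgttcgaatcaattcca
chr10:42537140-42537259: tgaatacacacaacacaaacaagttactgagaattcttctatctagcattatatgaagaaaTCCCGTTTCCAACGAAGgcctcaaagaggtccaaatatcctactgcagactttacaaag

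Satellite letters were common in the gap regions of WTAP-KO. In 300 bases around the centre, a tandem pair of ATTCC was found in 58.4% of the 257 gap regions of WTAP-KO alone, 16.2% of the 37 of METTL14-KO alone and 5.22% of all 6461 regions. The CENP-B core was found in 9.34%, 21.6% and 1.41%. Among 19881 promoters of protein-coding genes of the same length, 0.0553% and 0.0855% held the 2 motifs. Reads in such repeats can come from many copies, so their place on the assembly is uncertain.

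The strongest single differences were at these repeats. The region chr1:121484055-121485434 had a signal of 452672 and 182107 in METTL14-KO and no peak in WTAP-KO. It also had 400376 to 492834 in NTC and 222943 in METTL3-KO replicate 1, with no peak in METTL3-KO replicate 2. In the other direction chr2:89852753-89853904 had 35476 and 47106 in WTAP-KO and no peak in METTL14-KO. There METTL3-KO replicate 2 had 24884 and replicate 1 none, and NTC had 7037 to 9048.

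All 6 regions of chr11 that limma called lower in METTL14-KO among those with a peak in every library lay side by side, in chr11:51579273-51591370. The region chr11:51584158-51585129 among them had 3771 and 1092 in METTL14-KO and 25232 and 31548 in WTAP-KO. Its log2 difference was -3.77 ± 0.43 (SE, limma adjusted p = 2.98e-15). METTL3-KO replicates 1 and 2 had 1673 and 18621 there, again far apart from each other.

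In promoter regions away from gaps other letters were counted. CCAAT stood in 47.7% of the 392 promoter regions of METTL14-KO alone, 33.3% of the 75 of WTAP-KO alone and 36.0% of all promoters. The GC box stood in 16.1%, 5.33% and 24.6%, and the GATA motif AGATAA in 8.67%, 10.7% and 7.15%. In the 1377 promoter regions called in all 4 libraries, whose windows are placed in the same way as those of the 392 and the 75, the shares were 35.9% for CCAAT, 9.80% for the GC box and 12.1% for GATA. Windows of all promoters end just past the start while region windows are centred on the region, so that they do not cover the same bases. All motifs were searched on both strands, and a match is not a bound site.

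Region signal was tested with limma on log2(signal + 30.1), over regions called in at least 2 of the 4 libraries. Of 3945 regions 637 differed at a Benjamini-Hochberg adjusted p of 0.05, which is 16.1%. Higher in METTL14-KO were 288 (7.3%) and lower were 349 (8.85%). Among those higher, 278 had no peak in either WTAP-KO library, and 229 were at a coding start. Among those lower, 340 had no peak in either METTL14-KO library, and 251 were near a gap. These 278 and 340 regions passed the filter only through the knockout in which they had peaks, so the count describes presence and absence and supports no difference in level. In regions of at least 3 libraries 1 was called. With each library centred on its median the split was 94 higher and 364 lower, with signals divided by the step 236 and 331, and with all 9 libraries in the fit 447 and 290.

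The calls changed with the gap regions and with single libraries. Over the 3474 regions away from gaps limma called 0 (0%), with 769 at an unadjusted p under 0.05 and a smallest adjusted p of 0.0925. Leaving out METTL14-KO replicate 1, METTL14-KO replicate 2, WTAP-KO replicate 1 or WTAP-KO replicate 2 gave 379, 401, 149 and 251 calls. A library without a peak enters this fit as 0, so a region's difference there depends on the added 30.1 and is no bound on its fold.

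The 8 strongest promoter regions of METTL14-KO alone were at genes of varied function, among them 1 of heme synthesis. The region chr1:45476785-45477903, over the starts of UROD, a decarboxylase of heme synthesis, and of HECTD3, a ubiquitin ligase, had 4096 and 2275 in METTL14-KO and no peak in WTAP-KO. METTL3-KO had 7754 and 2866 there. The region of SNRPD2, a core protein of spliceosomal snRNPs, and QPCTL had 4834 and 1253. That of HDGF and PRCC had 3238 and 1992, and that of CENPX, a DNA repair and kinetochore protein, and LRRC45, a centrosome protein, had 3435 and 1579. All had a METTL3-KO peak in both replicates.

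The other 4 of these 8 regions were at ZFAND6 (3888 and 1692), DIXDC1 (3162 and 2278), STAM (3293 and 1640) and a region shared by MDC1 and TUBB (3380 and 1269). Another TUBB region, chr6:30687399-30688172, was called in all 4 libraries, with 1098 and 1311 in WTAP-KO. DIXDC1 likewise had another region with WTAP-KO peaks, described below. STAM sorts ubiquitinated receptors on endosomes, MDC1 recruits repair factors to broken DNA and TUBB is a beta-tubulin. STAM was the only one of the 8 with no METTL3-KO peak, and MDC1 and TUBB the only one with an NTC peak, of 14230 to 19330. The 8 regions were chosen for having no WTAP-KO peak, so these signals are a description with no test.

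The 8 strongest promoter regions of WTAP-KO alone included some of larger signal and width. PPP2R1B, a scaffold subunit of the phosphatase PP2A, had 12255 and 13594 in WTAP-KO at chr11:111636037-111637778. No METTL14-KO, METTL3-KO or NTC library listed a peak there. Its region is 1742 bp wide, close to the widest listed peak, and whether wider peaks were dropped from the other lists was not tested. The same holds for DLG2 and TMEM126B, an assembly factor of respiratory complex I, with 4147 and 5854 over 1558 bp.

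Of the remaining WTAP-KO promoters, HMGN4, a nucleosome-binding protein, had 2 regions, one of 4602 and 6941 and the other of 1784 and 2896. OSR2, a zinc finger transcription factor, had 3340 and 5101, but METTL14-KO had other peaks within 1 kb of its start, and summed over the promoter it had 2139 and 711 in METTL14-KO and 5089 and 8711 in WTAP-KO. SIK2, a salt-inducible kinase, had 2871 and 4283, and METTL3-KO replicate 2 had 12401 where replicate 1 had none. GYPE, of the glycophorin family of red cell surface proteins, had 1244 and 3501, and METTL3-KO also had a peak there in both replicates, of 9915 and 3440. ANKRD30BL had 7960 and 13963, and METTL3-KO replicate 2 had 5830 where replicate 1 had none. These 8 were likewise chosen for having no METTL14-KO peak, and their signals are a description with no test.

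Where all 4 libraries had a peak, METTL14-KO signals were on the whole the higher ones, but not beyond the spread of the libraries. The median over the 1705 regions was 2599 and 1581 in METTL14-KO and 1158 and 1657 in WTAP-KO. WTAP-KO replicate 2 was above METTL14-KO replicate 2, and the difference of the group means of log2 medians was 0.55 (exact permutation p = 0.667). The median log2 difference of the regions was 0.48, with quartiles 0.01 and 1.02. Both METTL14-KO libraries were above both WTAP-KO libraries in 671 regions (39.4%) and below both in 132 (7.74%).

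Among these 1705 regions limma called 93 (5.45%), of which 68 were higher in METTL14-KO (3.99%) and 25 lower (1.47%). Of the 68, 56 were at a coding start and 3 near a gap. Of the 25, 6 were at a coding start and 14 near a gap. With each library centred on its median the split turned to 41 higher and 64 lower, and with signals divided by the step there were 12 and 19. Directions below are therefore relative to the calibration, under which the median region was 0.48 higher in METTL14-KO. Leaving out METTL14-KO replicate 1, WTAP-KO replicate 1 or WTAP-KO replicate 2 left 19, 15 and 57 calls, and leaving out METTL14-KO replicate 2 gave 121.

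**Figure D2:**
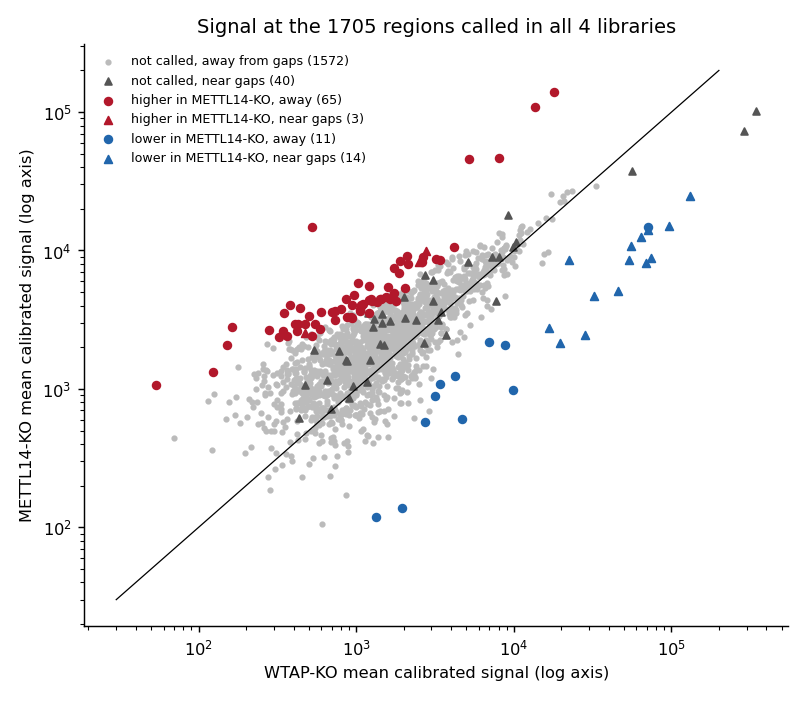
Mean calibrated signal of METTL14-KO (vertical log axis) against WTAP-KO (horizontal log axis) for the 1705 regions called in all 4 libraries, with circles away from gaps, triangles near gaps and the line of equal signal. The 68 called higher are red and lie mostly at middle signals, and 14 of the 25 called lower, in blue, are triangles at the bright end.

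The largest rises were at genes of varied function. DIXDC1, a DIX domain protein of Wnt signalling, differed most, with 17901 and 11772 in METTL14-KO and 454 and 599 in WTAP-KO. Its log2 difference was 4.72 ± 0.51 (SE, limma adjusted p = 7.50e-17). KANSL1, a subunit of a histone acetyltransferase complex, had 4198 and 1433 against 157 and 167. BORCS7, of the complex that positions lysosomes, had 1397 and 721 against 30.1 and 76.5.

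PPP2R5D, a regulatory subunit of PP2A, had 5416 and 2647 against 622 and 138. MRPL53, a mitochondrial ribosomal protein, had 2526 and 1633 against 129 and 171. A region beside the starts of ATM, the DNA damage kinase, and NPAT, an activator of histone genes, had 1334 and 1302 against 203 and 45.2. It covered neither start. Summed over the promoter, NPAT had 6909 and 4738 against 968 and 1271. That sum passed among genes marked in all 4 (limma adjusted p = 0.0111) but not over the 3148 genes (limma adjusted p = 0.119). These 6 regions were the largest rises at coding starts among regions whose groups did not overlap. Their limma adjusted p was between 7.50e-17 and 0.0351. With signals divided by the step, the regions at BORCS7 and at ATM and NPAT did not pass (limma adjusted p = 0.131 and 0.129). The region at ATM and NPAT also did not pass with libraries centred (limma adjusted p = 0.0703).

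Other called promoters included MCM3, a subunit of the replicative helicase, with 8478 and 7476 against 1671 and 2596. EED, a core subunit of Polycomb complex PRC2, had 6552 and 4607 against 576 and 1827. HSPA1B, a heat shock chaperone, had 4615 and 2412 against 255 and 438. TAF6, a subunit of TFIID, shared a promoter with CNPY4 that had 3267 and 1991 against 438 and 398. These 4 were chosen after their values had been seen.

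Of the 68 higher regions 24 were on chr6 and 13 on chr11, which is 9.09% of the 264 regions tested on chr6 and 9.15% of the 142 on chr11, against 3.99% over all chromosomes. No region was called higher on chr4, chr9, chr13 or chr21, with 44 to 81 regions tested on each. Nor was any on chr5, chr14, chr16, chr18, chr22, chrX or chrY, with at most 14 tested on each.

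Fewer promoters were lower in METTL14-KO. PAXBP1 had 144 and 134 in METTL14-KO and 1259 and 2630 in WTAP-KO, a log2 difference of -3.46 ± 0.98 (SE, limma adjusted p = 0.0136). STK11, a tumour suppressor kinase, had 158 and 78.2 against 948 and 1717, RCBTB2 had 2046 and 111 against 2620 and 4152, and ETV7, an ETS family repressor, had 1529 and 234 against 2386 and 3899. STK11 did not pass without gap regions (limma adjusted p = 0.0560) or with a pseudocount 0.1 times as large (limma adjusted p = 0.0539). With signals divided by the step, STK11 and ETV7 did not pass (limma adjusted p = 0.0740 and 0.0565), while PAXBP1 and RCBTB2 did (limma adjusted p = 0.0196 and 0.0183). At RCBTB2 and ETV7 METTL14-KO replicate 2 was far below replicate 1. The regions at B2M and PATL2 (179 and 31.6 against 793 and 414) and at ATP2C1 (265 and 78.2 against 647 and 1074) also had groups that did not overlap but did not pass (limma adjusted p = 0.245 and 0.225).

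A single stretch of chr11 held differences in both directions. At the start of ALG9, a mannosyltransferase of N-glycosylation at chr11:111742305, METTL14-KO had 49976 and 43264 and WTAP-KO 7338 and 8854, and the neighbouring promoter of CFAP68 and FDXACB1 had 53004 and 38188 against 3514 and 6833. DIXDC1 followed at 55.5 kb and DLAT, a subunit of pyruvate dehydrogenase, at 154 kb with 10345 and 7762 against 1668 and 2507. On the other side PPP2R1B, 105 kb before ALG9, and SIK2, 268 kb before it, had peaks in WTAP-KO alone. NTC libraries had 26031 to 33282 at ALG9, between the 2 knockouts.

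**Figure D3:**
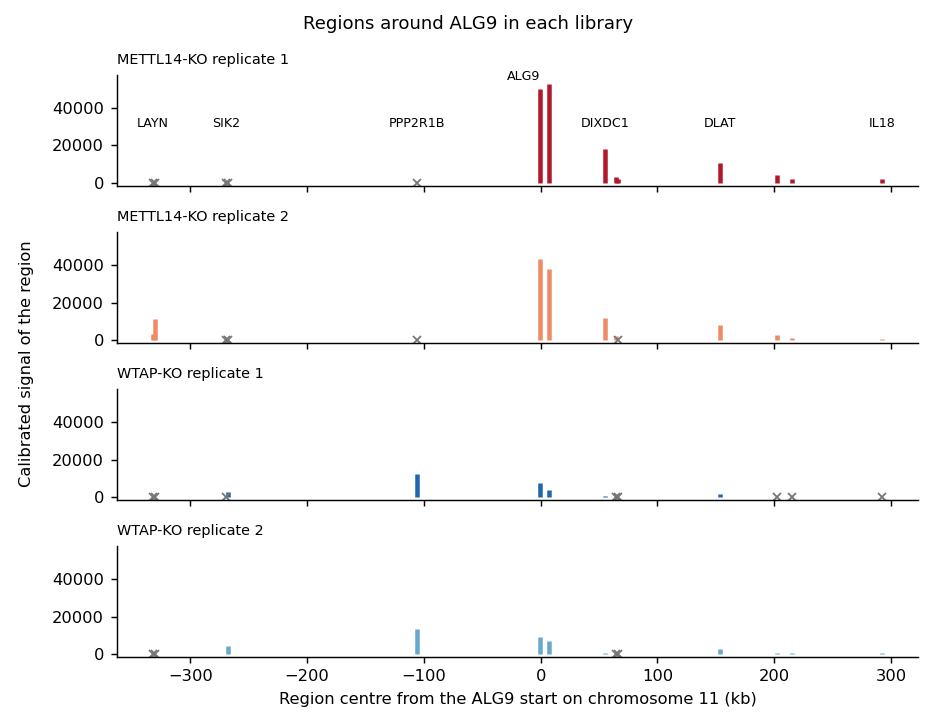
Calibrated signal (vertical axis) of each of the 14 regions around ALG9 in the 4 libraries, by distance of the region's centre from the ALG9 start (horizontal axis, kb); a cross marks a region without a peak in that library. METTL14-KO bars at ALG9 and its neighbour stand between 38188 and 53004 and WTAP-KO bars between 3514 and 8854, while PPP2R1B has a bar in WTAP-KO alone.

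Promoter signal per gene gave fewer calls than regions. Of 3148 genes marked in at least 2 of the 4 libraries limma called 0 (0%), with 645 at an unadjusted p under 0.05 (574 higher and 71 lower in METTL14-KO) and a smallest adjusted p of 0.119. Without METTL14-KO replicate 2 it called 185, without WTAP-KO replicate 2 100, without WTAP-KO replicate 1 27 and without METTL14-KO replicate 1 1, and with all 9 libraries in the fit 449. Among the 1661 genes marked in all 4 libraries 43 were called (2.59%), 41 higher (2.47%) and 2 lower (0.12%). The 2 lower genes were RCBTB2 and OSR2, and over the 3148 genes neither passed (limma adjusted p = 0.398 and 0.145). Among the 41 higher genes MEIS1, a homeobox partner of HOX proteins, differed by 2.09 ± 0.48 (log2, SE, limma adjusted p = 0.00266). BCL2L1, an inhibitor of apoptosis, differed by 1.72 ± 0.42 (log2, SE, limma adjusted p = 0.00457), and its called promoter region was near a gap. Over the 3148 genes MEIS1 and BCL2L1 did not pass (limma adjusted p = 0.119 and 0.196). Both were chosen after their values had been seen.

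Peaks also sat at different places within promoters. The centre of a METTL14-KO promoter peak lay upstream of the nearest start more often than that of a WTAP-KO peak. Its median position was -64.3 and -44.5 bp in METTL14-KO, with minus meaning upstream, and 45.5 and 63 bp in WTAP-KO. METTL3-KO libraries were at 60 and 75 bp and NTC libraries at 68 to 76.3 bp. The groups did not overlap, and the exact permutation p was 0.333, the smallest possible.

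The 200 bp upstream of the start held the centre of 39.3% and 32.2% of METTL14-KO promoter peaks and 22.5% and 20.9% of WTAP-KO peaks. A start lay inside 61.5% and 55.1% of METTL14-KO promoter peaks and 48.5% and 46.9% of WTAP-KO peaks. Median width of these peaks was 347 bp in both METTL14-KO libraries, and 320 and 350 bp in WTAP-KO. Whether position went with peak width was not tested. In the regions called in all 4 libraries the medians were -32 and -36.5 bp against 11 and 12.3 bp. Taking the 3159 strongest peaks of each library left them at -68.5 and -44.8 bp against 45.5 and 63 bp. This comparison was added after the data had been seen.

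**Figure D4:**
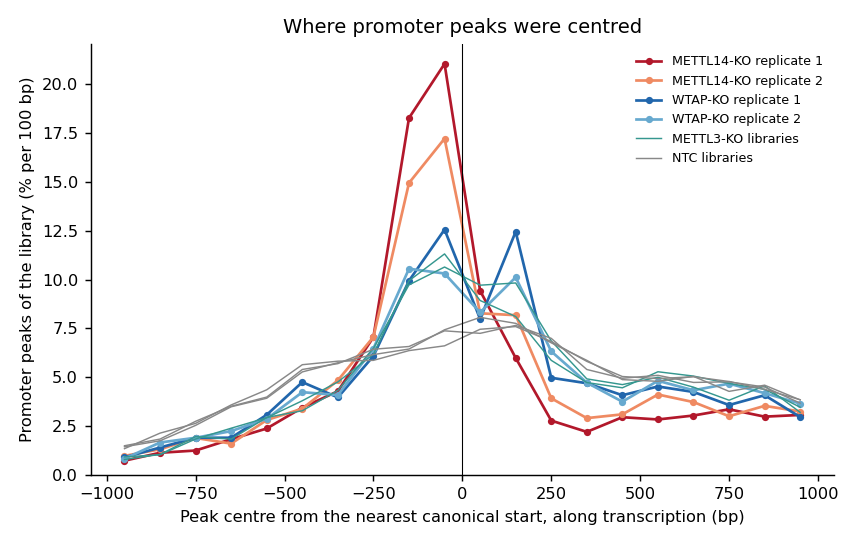
Share of each library's promoter peaks (vertical axis, percent per 100 bp) by the distance of the peak centre from the nearest start along transcription (horizontal axis, bp; the line marks the start). Both METTL14-KO curves are highest in the 200 bp before the start, which hold 39.3% and 32.2% of their centres. Both WTAP-KO curves have a second rise 100 to 200 bp after the start, to 12.5% and 10.1%. In the same bin METTL3-KO replicate 1 falls from 8.93% to 8.11% and replicate 2 is level (9.71% and 9.83%), and the NTC curves are broad.

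The number of peaks by chromosome was set against NTC, the same control for both knockouts. These are ratios of numbers, since 50.1% of the 6461 regions had no peak in any NTC library. On chr6 METTL14-KO had 44.6% and WTAP-KO 37.3% of the mean NTC number of peaks, on chr21 38.9% and 40.2%, and on chr15 32.7% and 21.2%. The ratio was lower on chr18 (3.42% and 1.30%), chrX (1.60% and 3.50%) and chr22 (4.09% and 2.76%). On chrY WTAP-KO had 128 and 130 peaks and METTL14-KO 21 and 1, where NTC had a mean of 75.3.

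Signal at the regions of all 4 libraries was also compared along the chromosomes. In 73 windows of 10 Mb with at least 8 such regions, signals were centred on each library's median, and 49 windows had groups that did not overlap. The median over a window's regions of the centred log2 difference of METTL14-KO from WTAP-KO was past 0.5 in either direction in 16 windows. It was -1.11 at 0 to 10 Mb of chr12, -1.02 at 100 to 110 Mb of chr6 and -0.97 at 50 to 60 Mb of chr13. At 50 to 60 Mb of chr12 it was 1.06, at 50 to 60 Mb of chr6 0.86 and at 60 to 70 Mb of chr11 0.78. DNA copy number of the cultures was not measured, and its part in these windows was not tested.

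Gene groups are described by how many members had a promoter peak. Among all 20163 genes, METTL14-KO alone marked 402 and WTAP-KO alone 65. A mean of 17.2% of all genes was marked in METTL14-KO and 12.2% in WTAP-KO, and 8495 were marked in all 3 NTC libraries. None of the members passed limma over genes marked in at least 2 libraries, as for all genes. Among genes marked in all 4, MCM3, MRPL53 and ZNF772 were the only members called, each higher in METTL14-KO, as were 2.47% of all 1661. Their lists had 6 DNA replication genes, 21 mitochondrial ribosomal protein genes and 80 zinc finger genes marked in all 4.

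Of 8 genes of the m6A complex 5 and 2 were marked in METTL14-KO and 2 in each WTAP-KO library, a mean of 43.8% and 25% beside 17.2% and 12.2% of all protein-coding genes. VIRMA and ZC3H13 were marked in all 4, and no NTC library listed a peak at either. VIRMA, the scaffold of the WTAP part of the complex, had 3779 and 2149 in METTL14-KO and 1138 and 1176 in WTAP-KO. ZC3H13, which anchors that part in the nucleus, had 1533 and 1264 against 766 and 1917. Of 12 readers and erasers 3 were marked in both METTL14-KO libraries and 2 in both WTAP-KO libraries. IGF2BP2, an m6A reader, had 8434 and 4456 against 2387 and 4620.

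Among 17 H3K4 methyltransferase genes, 8 and 5 were marked in METTL14-KO and 5 in each WTAP-KO library. The means were 38.2% and 29.4%, beside 17.2% and 12.2% of all genes. In all 3 NTC libraries 16 were marked, beside 8495 of all 20163 genes. KMT2A had the highest signal, 24670 and 16386 in METTL14-KO and 15290 and 23991 in WTAP-KO, which overlapped, and it was the one with no peak listed in NTC. SETD1B, the catalytic subunit of a SETD1 complex, had 1753 and 645 in METTL14-KO and no peak in WTAP-KO. NCOA6, a subunit of the KMT2C and KMT2D complexes, had 1244 and 1315 in WTAP-KO and no peak in METTL14-KO.

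Heme genes were marked in 6 and 4 of 15 cases in METTL14-KO and in 3 and 2 in WTAP-KO. The means were 33.3% and 16.7%, beside 17.2% and 12.2% of all genes. In all 3 NTC libraries 10 were marked, beside 8495 of all 20163 genes. UROD is described above. UROS, the synthase before it in the pathway, had 429 and 306 in METTL14-KO and no peak in WTAP-KO. PPOX had 892 and 130 in METTL14-KO and 45.2 and none in WTAP-KO.

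Of 15 erythroid transcription factor genes, 6 and 1 were marked in METTL14-KO and 3 and 2 in WTAP-KO, a mean of 23.3% and 16.7% beside the 17.2% and 12.2% of all protein-coding genes. RUNX1 was the only one marked in all 4 (6685 and 1495 against 7056 and 7726). TAL1 had 249 and 45.5 in WTAP-KO and no peak in METTL14-KO. Of the megakaryocyte markers, FLI1 had 12277 and 9603 in METTL14-KO against 14256 and 23067 in WTAP-KO, and ITGA2B, the platelet integrin chain, had 2371 and 348 in METTL14-KO alone. None of 7 monocyte and granulocyte and none of 4 lymphoid markers had a peak in the 4 libraries.

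Red cell membrane genes were marked in 3 and 2 of 16 cases in METTL14-KO and in 3 and 4 in WTAP-KO. The means were 15.6% and 21.9%, beside 17.2% and 12.2% of all genes. ANK1, the ankyrin of the red cell skeleton, had 6298 and 2972 against 3465 and 2756. RHAG, an ammonia channel of the Rh complex, had 7828 in METTL14-KO replicate 1, no peak in replicate 2, and 1915 and 3675 in WTAP-KO. Of 14 erythropoietin signalling genes every library marked 3, among them GRB2 and SOS1 in all 4.

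Both METTL14-KO libraries marked more cytosolic ribosomal protein and splicing factor genes than either WTAP-KO library, as they did over all genes. Cytosolic ribosomal protein genes were marked in 43 and 31 of 83 cases in METTL14-KO and 26 in each WTAP-KO library, a mean of 44.6% and 31.3% beside 17.2% and 12.2% of all genes. Translation initiation factor genes were marked in 21 and 12 of 56 cases against 11 and 12. Of the ribosomal protein genes, 6 (RPL22, RPL28, RPL35, RPL36, RPL7A and RPS19) were marked in METTL14-KO alone and RPL27 in WTAP-KO alone. RPS19, the gene most often mutated in Diamond-Blackfan anemia, had 637 and 561 in METTL14-KO. Splicing factor genes were marked in 34 and 28 of 73 cases against 20 and 23, with 7 in METTL14-KO alone, among them SF3B2 (1607 and 889) and SNRPB (1824 and 497), and none in WTAP-KO alone.

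Zinc finger genes, the largest list, were marked in 200 and 123 of 508 cases in METTL14-KO and in 104 and 109 in WTAP-KO. The means were 31.8% and 21.0%, beside 17.2% and 12.2% of all genes. In METTL14-KO alone 24 were marked and in WTAP-KO alone 4 (ZNF330, ZNF350, ZNF567 and ZNF841). Nuclear genes of the respiratory chain were marked in 39 and 24 of 83 cases against 22 and 20, a mean of 38.0% and 25.3%. COX5A, COX5B and UQCRFS1 were marked in METTL14-KO alone and NDUFA9 in WTAP-KO alone. Mitochondrial ribosomal protein genes did not keep the order of the groups, with 45 and 29 of 78 in METTL14-KO and 29 and 33 in WTAP-KO.

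Genes of the cell cycle were mixed. Of 46 DNA replication genes, 17 and 12 were marked in METTL14-KO and 9 and 11 in WTAP-KO, with PCNA, ORC6 and POLD4 in METTL14-KO alone. The means were 31.5% and 21.7%, beside 17.2% and 12.2% of all genes. Of 18 genes of G1 cyclins, their kinases and inhibitors, 9 and 4 were marked in METTL14-KO and 6 and 7 in WTAP-KO. The mean was 36.1% in each knockout. CDKN1B had 2416 and 1047 in METTL14-KO and 3303 and 3215 in WTAP-KO, without overlap, but did not pass (limma adjusted p = 0.415 among genes marked in all 4). RB1, the retinoblastoma protein gene, had 201 and 1077 in WTAP-KO and no peak in METTL14-KO.

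**Figure D5:**
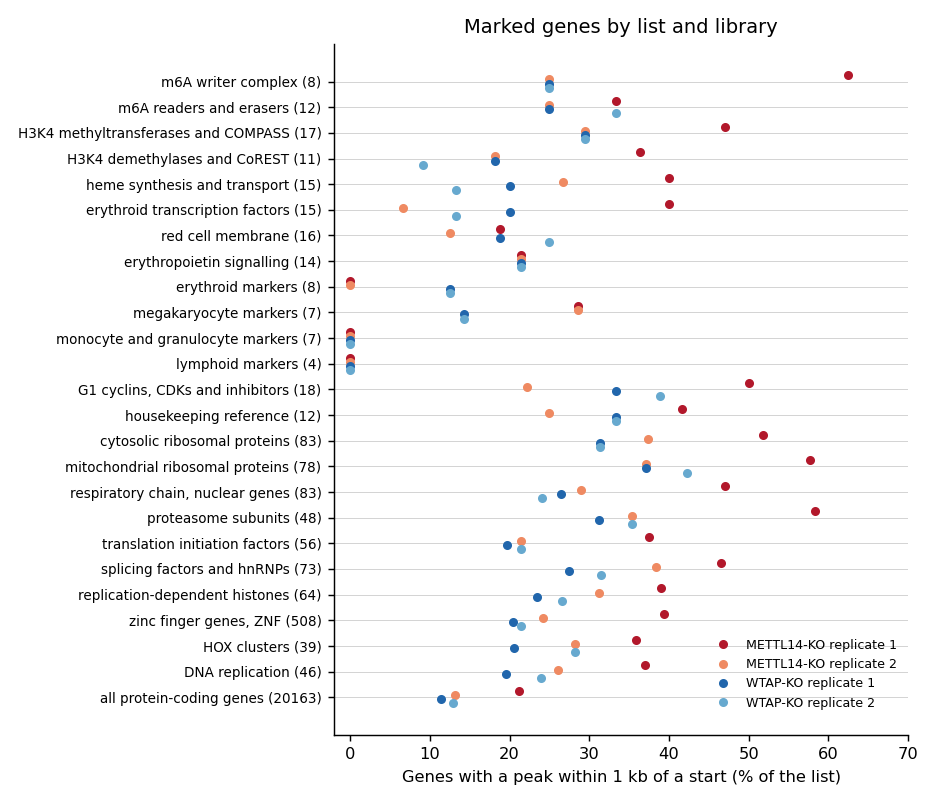
Percent of the genes of each list (list size in brackets) with a peak within 1 kb of a start, for each of the 4 libraries, with all protein-coding genes in the bottom row. METTL14-KO replicate 1 is highest in most lists, while METTL14-KO replicate 2 lies among the WTAP-KO libraries in several, such as the mitochondrial ribosomal proteins with 29 of 78 genes against 29 and 33.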

How the data were processed

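H3K4me3 CUT&RUN libraries of HEL cells were used, 2 METTL14-KO and 2 WTAP-KO, with 3 NTC and 2 METTL3-KO libraries for reference, and the labels gave each library's group and replicate number. Per the study's methods, the authors aligned paired reads with Bowtie to hg19 and to the yeast genome sacCer3 of the spike-in, removed duplicates with Picard, calibrated coverage by the spike-in and called peaks in each library on its own; tool versions are not given in the sources used here. The deposited lists hold chromosome, start, end and a calibrated signal per peak, not counts. At least 99.3% of a library's values in the 4 lists were whole multiples of a step (tolerance 0.05 of a step), of 0.440 and 0.416 in METTL14-KO and 0.407 and 0.320 in WTAP-KO. The depth is unknown, and 2 libraries per group limit the precision. The labels do not say whether libraries came from separate cultures, so the spread between these libraries may be technical. In limma the spread of a region's or gene's own libraries is combined with one fitted over all those tested. Among regions and genes of all 4 libraries the SE and p rest almost wholly on the fitted spread. At RCBTB2 the log2 difference of promoter signal, -2.62, had an SE of 1.42 over 3148 genes and 0.79 over the 1661 marked in all 4.

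It was assumed that starts count from 0, and they are printed from 1. In all, 1 mitochondrial peak was left out. Peaks were merged in Python 3.11.15, a region's signal is the sum of its peaks, and shared bases were counted with bedtools 2.31.1. Starts were those of GENCODE version 44 on hg19. Library values were set against each other with exact permutation tests, two-sided (scipy 1.17.1). Signal was compared with limma 3.58.1 (R 4.3.3, trend option) at a Benjamini-Hochberg adjusted p of 0.05. Values were log2(signal + 30.1), where 30.1 is the smallest signal, a scale that understates the change of weak regions. Whether the limma p-values hold where a library lacks a peak or where replicates differ in spread was not tested.

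Most genes were named by a rule. It took the 3 targets, the 8 strongest promoter regions of each knockout alone and marked members of gene lists. It also took the 6 largest rises and 6 largest falls at promoters called in all 4 libraries without overlap. MCM3, EED, HSPA1B, TAF6, MEIS1 and BCL2L1 were chosen after their values had been seen. CFAP68, FDXACB1 and DLAT were named for their place near ALG9. Members and lists were chosen with earlier results of these data known. Replicate numbers did not pair the libraries (correlation of same-numbered deviations -0.0242 over 3945 regions).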

Additional observations from a re-analysis of the deposited data

How the results depend on the processing

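The peak ratio of METTL14-KO to WTAP-KO ranged from 92.8% to 155% when 1 library was left out, below 100% only without METTL14-KO replicate 1 (92.8%), and the marked-gene ratio from 109% to 174%. The share of METTL14-KO regions with a WTAP-KO peak was 56.6% to 77.5% with 1 library left out. The reverse share was 71.5% to 81.7%, and it was 90.2% with peaks within 1 kb merged, 75.5% with 50% reciprocal overlap, 75.6% for peaks at or above the median signal, 79.8% for equal numbers of strongest peaks and 93.9% without gap peaks. The 637 calls in regions of at least 2 libraries became 236 with a pseudocount 10 times larger, 198 without the filter, 1 in regions of at least 3 libraries, 0 without gap regions and 149 to 401 with 1 library left out, where the lone library was assumed to vary like the others. A pseudocount 0.1 times as large gave 864. The 93 calls in regions of all 4 libraries became 31 with signals divided by the step, 13 with all 9 libraries in the fit and 15 to 121 with 1 library left out. The 0 gene calls became 1 with centred libraries, 449 with all 9 libraries, 43 over genes marked in all 4 and 1 to 185 with 1 library left out. Replicate numbers are only shared numbers here. With the replicate block limma called 9 regions, 11 regions of all 4 libraries and 21 genes. Of the 28 named regions 25 lost their call, and DIXDC1 at chr11:111797238-111798285 kept it. The regions at B2M and PATL2 and at ATP2C1 had no call to lose. The log2 difference at regions of all 4 libraries was 0.30 with signals divided by the step and 0.19 to 0.91 with 1 library left out. The median centre differed by -119 to -98.8 bp with 1 library left out. Where several settings moved a count, the cause was not tested. The exclusion of gap regions and the tests of peak position were chosen after seeing the data. With 2 libraries a side no exact test can reach 0.05, peaks wider than 2000 bp are not in the lists, and repeats can misplace reads.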
